A study of Homo sapiens with 12 samples.

Results

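Folate enters a cell through membrane carriers and receptors, is held inside by a chain of glutamates, is kept in its reduced, one-carbon-bearing forms by reductases and synthetases, and is spent in the making of thymidylate. Expression of 8 genes covering these steps was followed in HCT116 cells with and without MTHFD2: the reduced folate carrier SLC19A1, the proton-coupled folate transporter SLC46A1, the folate receptor FOLR1, the glutamate-adding enzyme FPGS, the glutamate-removing enzyme GGH, the reductase DHFR2, the folinate-using synthetase MTHFS and thymidylate synthase TYMS. The 8 genes were taken by name, with earlier results of these data known, from the 60648 genes of the deposited count table, and all 8 were found.

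HCT116 is an established human colorectal carcinoma line. Poly-A selected RNA was sequenced from cells with intact MTHFD2 (MTHFD2-WT, WT below) and from MTHFD2-KO cells (KO below), which come from 1 clone isolated after CRISPR-Cas9 editing, so the knock-out and the history of that clone cannot be told apart. Each genotype was collected soon after the knock-out was made (initial harvest) and again once the cells had been grown for a further 2 months (final harvest), with 3 libraries per group and 12 in all, which the series' text calls biological replicates. All 4 groups were grown in DMEM with 10% fetal bovine serum. MTHFD2 encodes a dehydrogenase and cyclohydrolase of the mitochondrial folate pathway that oxidises methylene-tetrahydrofolate on the way to formate.

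Mammalian cells cannot make folate. Reduced folates pass the plasma membrane mostly through SLC19A1, an anion exchanger, while SLC46A1 works best at acid pH and FOLR1 binds folate tightly and carries it in by endocytosis. FPGS lengthens the glutamate tail, which traps folates in the cell and makes them better substrates, and GGH trims the tail in the lysosome. TYMS uses methylene-tetrahydrofolate to turn dUMP into dTMP and releases dihydrofolate, which a reductase must restore, and both TYMS and the carriers are known in colorectal cancer as determinants of the response to fluorouracil and antifolates.

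Library totals ran from 38597809 to 40017561 counts. MTHFD2 itself, which checks the labels, was at 413 ± 41.2 CPM (counts scaled to a common library total with TMM factors; mean ± SD, n = 3) in WT and 137 ± 9.1 in KO at the initial harvest, and at 355 ± 32.4 and 137 ± 16.7 at the final harvest, with no overlap between genotypes (log2 fold change -1.59, edgeR adjusted p = 3e-08, and -1.38, edgeR adjusted p = 1.09e-07). Of 9 markers of colon epithelium, EPCAM (307 to 514 CPM over the 12 libraries), KRT8, KRT18, KRT19, CDH1 and CDX2 (10.7 to 16.5) were present, while KRT20, VIL1 and CDX1 stayed under 1 CPM. The summed epithelial markers were at 2620 to 3230 CPM in the 6 WT libraries and at 2210 to 2700 in the 6 KO libraries. DCN, a fibroblast marker, had 0 counts in every library. Of 4 leukocyte markers CD3E had 0 counts, PTPRC at most 2, CD68 at most 6 and CD79A at most 16, and of 3 endothelial markers CDH5 had at most 2, PECAM1 at most 22 and VWF at most 69. The 5 fibroblast markers summed to 56.8 to 78.8 CPM in WT and 37.5 to 59.3 in KO, nearly all of it COL1A1 (36.2 to 77.3), and their part in the results was not tested.

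The genotype difference over both harvests was past the test for 3 of the 8 genes: SLC19A1 and DHFR2 were higher in KO and GGH was lower. A gene was called at a Benjamini-Hochberg adjusted p under 0.05 in edgeR's quasi-likelihood test over the 18289 genes with enough counts, all 8 members among them, and 30.1% of those genes were called in this average of the 2 harvests, 14% higher and 16.1% lower. Within the initial harvest 1 of the 8 was called, SLC19A1, where 19.9% of all genes were, 8.55% higher and 11.3% lower. Within the final harvest 2 of the 8 were called, SLC19A1 and DHFR2, where 18.5% of all genes were, 8.38% higher and 10.2% lower. These shares lie near those of the genome at large, so the group of 8 as a whole is not set apart by its number of calls. None of the 8 was called for the change over 2 months in WT (6.47% of all genes called) or in KO (1.48%), nor for a difference in that change between genotypes (1.28%). At an unadjusted p under 0.05 those counts were 1 (SLC19A1), 2 (FOLR1 and DHFR2) and 2 (SLC19A1 and DHFR2), and DESeq2 called 0 in each. The median log2 fold change of KO against WT over the 8 was 0.11 at the first harvest and 0.22 at the second, beside 0.00 and -0.00 over all genes tested.

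**Figure D1:**
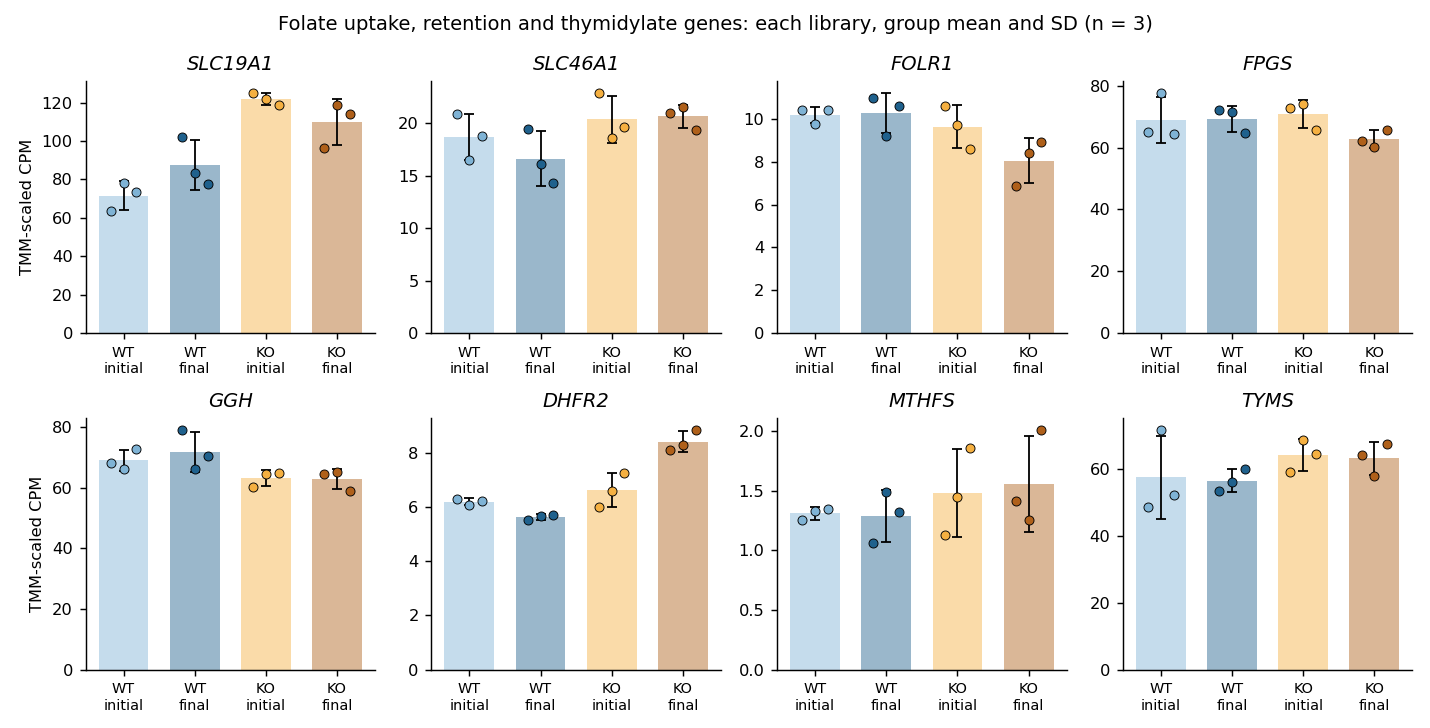
TMM-scaled CPM (y axes, each starting at 0) of the 8 genes in WT and KO at both harvests (x axes); points are libraries, bars are group means and whiskers are SD, n = 3. SLC19A1 stands at 119 to 125 CPM in KO against 63.5 to 78 in WT at the initial harvest, and DHFR2 at 8.08 to 8.84 in KO against 5.51 to 5.69 in WT at the final harvest.

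SLC19A1 (ENSG00000173638.19, GRCh38 chr21:45493572-45573365, minus strand) was the member with the highest fold difference between genotypes at a single harvest. At the initial harvest it was at 63.5, 78 and 73.2 CPM in the 3 WT libraries and at 125, 122 and 119 in the 3 KO libraries. Every KO library lay above every WT library, a separation that 35.5% of all genes tested also had in this comparison. The group means were 71.5 ± 7.37 and 122 ± 3.05, a 1.71-fold difference (log2 0.77, SE 0.109, 95% interval 0.54 to 1, edgeR adjusted p = 8.45e-05). In bulk RNA, fewer cells of a type and less RNA per cell cannot be told apart, here and below.

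At the final harvest the SLC19A1 groups overlapped. WT was at 102, 83.1 and 77.5 CPM and KO at 96.4, 119 and 114, so the lowest KO library lay under the highest WT library. The log2 difference was 0.32 (95% interval 0.09 to 0.55, edgeR adjusted p = 0.0472), just past the threshold. It was no longer called without WT initial replicate 3 (adjusted p = 0.0658), WT final replicates 2 (0.184) or 3 (0.228), KO initial replicates 1 (0.0701), 2 (0.0687) or 3 (0.0641), or KO final replicates 2 (0.183) or 3 (0.141), each left out alone. The initial libraries are not among those compared here. Without each of those named, the log2 difference stayed at 0.32, and only the fit shared by all groups changed. The change over 2 months was 0.29 in WT (edgeR adjusted p = 0.135) and -0.16 in KO (edgeR adjusted p = 0.539), and the interaction of genotype and harvest was -0.45 (unadjusted p = 0.0101, edgeR adjusted p = 0.213), so the smaller difference at the final harvest was not shown to differ from that at the initial harvest. Averaged over both harvests, the log2 difference was 0.55 (edgeR adjusted p = 4.08e-05).

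COL18A1, a basement membrane collagen gene, lies on the opposite strand and shares 1563 bases, or 13.9%, of the SLC19A1 exons, and whether the counting used strand is not given in the sources used here. COL18A1 was at 183 ± 19.8 CPM in WT and 243 ± 35.7 in KO at the initial harvest and at 170 ± 24.2 and 219 ± 33.4 at the final harvest, and its average log2 difference was 0.39 (edgeR adjusted p = 0.00519). The part of the shared bases in the SLC19A1 difference was not tested. Among 20 tested genes, 10 on each side (chr21:44932814-46286297), the median log2 difference at the initial harvest was 0.17 and 14 were above 0. Of the 20, 5 were called, 4 of them higher, while 19.9% of all genes were called and 8.55% were higher. At the final harvest the median of the 20 was 0.12.

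The bases before the start site of SLC19A1 are shown because this gene carried the clearest genotype difference of the set. The stretch comes from RefSeq (GRCh38.p14, chr21:45542472-45542690, minus strand), runs 5′ to 3′ from 250 to 32 bases before an annotated start, and holds no annotated exon. RefSeq lists 4 start windows for SLC19A1 and 3 for FPGS, and for each gene only the window nearest the start of a principal transcript in GENCODE 29 was searched, which for SLC19A1 lies inside the gene's span. Capitals mark the GC box, searched as GGGCGG and its reverse complement CCGCCC, the letters bound by Sp-family factors.

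SLC19A1 start region: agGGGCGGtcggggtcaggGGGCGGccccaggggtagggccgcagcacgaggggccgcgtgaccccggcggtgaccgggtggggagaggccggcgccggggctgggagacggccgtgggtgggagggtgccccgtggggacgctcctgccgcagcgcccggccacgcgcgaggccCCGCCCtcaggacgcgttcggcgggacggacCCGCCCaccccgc

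The stretch holds 4 GC boxes, and 82.3% of the whole 300-base window was G or C, against a median of 58.7% over 35116 RefSeq start windows. A GC box was present in 45% of all windows and in the window searched for 4 of the 6 members matched (SLC19A1, SLC46A1, FPGS and MTHFS), so it does not set these genes apart. The E-box CACGTG (7.26% of all windows), the E2F-type letters TTTCGCGC or TTTGGCGC (1.15%) and the ATF4-type letters TTGCATCA (0.866%) were searched on both strands and were in 0 of the 6 windows, and CCAAT (34.6%) was in 1, that of FPGS. A match in these windows is a description of letters and says nothing of binding. FOLR1 and GGH were not matched.

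SLC46A1 (ENSG00000076351.13, chr17:28394642-28407197, minus strand), the carrier of folate uptake in the small intestine, was not called at either harvest or on average. Its CPM were 20.9, 16.5 and 18.8 in WT and 22.9, 18.6 and 19.7 in KO at the initial harvest, where the genotypes overlapped broadly (log2 0.13, edgeR adjusted p = 0.516). After 2 months WT was at 19.5, 16.1 and 14.3 and KO at 21, 21.6 and 19.4. The upper WT library and the lowest KO library barely overlapped there, and the log2 difference was 0.31 (95% interval 0.06 to 0.57, edgeR adjusted p = 0.0881). Without WT final replicate 1 it was 0.44 (adjusted p = 0.0164), and the average difference of 0.22 (adjusted p = 0.0641) was past the threshold without WT initial replicate 1 (0.0253) or WT final replicate 1 (0.0136). Exon bases shared with other genes make up 60.6% of SLC46A1, 4421 of them with SARM1 on the opposite strand, which had 93 to 172 counts against 553 to 907 for SLC46A1.

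FOLR1 (ENSG00000110195.14, chr11:72189558-72196323, plus strand), the high-affinity folate receptor, did not pass the test in any comparison. It was at 10.4, 9.76 and 10.4 CPM in WT and 10.6, 9.7 and 8.6 in KO at the initial harvest (log2 -0.08, edgeR adjusted p = 0.694). At the final harvest WT was at 11, 9.2 and 10.6 and KO at 6.87, 8.39 and 8.92. Those final groups did not overlap, as for 33.1% of all genes, and the log2 difference of -0.35 (95% interval -0.60 to -0.09) just missed the threshold (edgeR adjusted p = 0.0529). It passed without WT final replicate 2 (0.04) or KO final replicate 3 (0.0361). It also passed without WT initial replicates 1 (0.0434) or 2 (0.0429), which are not among the libraries compared, with the log2 difference still at -0.35. The average difference of -0.21 (adjusted p = 0.0653) passed without WT final replicate 2 (0.0467), KO initial replicate 1 (0.0497) or KO final replicate 3 (0.0428). No exon base of FOLR1 is shared with another gene.

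The remaining genes of the folate receptor family, with exporters and a carrier of folate and antifolates, form a list of 10 genes, of which 7 were tested. FOLR2, FOLR3 and IZUMO1R, the family genes, had at most 2, 1 and 13 counts in any library and were not tested. Averaged over harvests, 3 of the 7 were lower in KO and the other 4 did not pass, with a list median of -0.05 beside 0.00 over all genes, of which 16.1% were lower. Each harvest alone gave 2 of 7 lower, ABCC2 and ABCC3 at the initial (11.3% of all genes lower) and ABCC3 and ABCG2 at the final one (10.2%). The ABCC2 call was lost without KO initial replicate 3 (0.058), the final ABCC3 call without KO final replicate 1 (0.0532), and the final ABCG2 call without WT final replicate 1 (0.058) or 3 (0.101) or KO final replicate 1 (0.0759) or 3 (0.0976). ABCC3, an organic anion exporter, fell most: its CPM were 180 ± 39.3 in WT and 102 ± 14.1 in KO at the initial harvest and 185 ± 23.1 and 122 ± 19.9 at the final harvest (average log2 -0.71, edgeR adjusted p = 9.64e-05). ABCC2, the canalicular organic anion exporter, was at 828 ± 145 and 562 ± 73.8, then 869 ± 104 and 669 ± 95.7 (average -0.47, edgeR adjusted p = 0.0018). ABCG2, a multidrug exporter that can carry folates, fell by 0.40 on the log2 scale on average (edgeR adjusted p = 0.00388) from a level under 5 CPM. The exporters ABCC1, ABCC4 and ABCC5 had average log2 values of 0.13, 0.18 and -0.05 and did not pass. SLC25A32, the mitochondrial folate carrier, had 11 to 33 counts and shares 80.8% of its exon bases with other genes, and its value of 0.23 did not pass.

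FPGS (ENSG00000136877.15, chr9:127794597-127814327, plus strand), the enzyme that lengthens the glutamate tail, was not called in any comparison. It was at 65.1, 77.7 and 64.5 CPM in WT and 72.9, 74.2 and 65.8 in KO at the initial harvest. After 2 months it was at 72.2, 71.4 and 64.6 in WT and 62.3, 60.1 and 65.8 in KO. The genotypes overlapped at both harvests, with log2 differences of 0.04 (95% interval -0.15 to 0.23) and -0.15 (-0.33 to 0.04). KO libraries did not overlap between harvests, as for 23.2% of all genes, and the KO change of -0.18 did not pass (edgeR adjusted p = 0.365).

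GGH (ENSG00000137563.13, chr8:63014881-63039407, minus strand), the lysosomal hydrolase, was lower in KO by a small margin on average. At the initial harvest WT was at 68.2, 66.1 and 72.7 CPM and KO at 60.1, 64.5 and 64.8, and at the final harvest WT was at 79.1, 66.2 and 70.3 and KO at 64.5, 65.1 and 59. All 6 WT libraries lay above all 6 KO libraries, a separation of genotypes in 1 direction or the other that 12.8% of all genes tested had. The average log2 difference was -0.16 (SE 0.0583, 95% interval -0.28 to -0.04, edgeR adjusted p = 0.0471), while neither harvest alone passed (-0.13, edgeR adjusted p = 0.31, and -0.19, edgeR adjusted p = 0.122). The average call was kept without WT initial replicate 2 or WT final replicate 2 and lost without any other single library (adjusted p = 0.056 to 0.119).

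DHFR2 (ENSG00000178700.9, chr3:94047836-94063389, minus strand), a reductase of dihydrofolate ascribed to mitochondria, was the second clear difference. It was at 6.3, 6.05 and 6.21 CPM in WT and 6, 6.57 and 7.25 in KO at the initial harvest, where the groups overlapped (log2 0.09, edgeR adjusted p = 0.58). At the final harvest it was at 5.51, 5.68 and 5.69 in WT and 8.08, 8.29 and 8.84 in KO. All KO libraries lay above all WT libraries there, and 33.1% of all genes tested were also separated, in 1 direction or the other. The means were 5.63 ± 0.102 and 8.4 ± 0.395, a 1.49-fold difference (log2 0.58, SE 0.103, 95% interval 0.36 to 0.80, edgeR adjusted p = 0.000737). Over 2 months the log2 change was -0.14 in WT (edgeR adjusted p = 0.515, libraries not overlapping, as for 22.2% of all genes) and 0.35 in KO (unadjusted p = 0.00358, edgeR adjusted p = 0.112). Neither change passed, and their difference of 0.48 did not pass either (unadjusted p = 0.0044, edgeR adjusted p = 0.147).

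DHFR2 had 203 to 352 counts per library and belongs to a family with near-identical copies elsewhere in the genome, so how the counting treated reads that match several places, which is not given in the sources used here, could split its reads. Its span overlaps NSUN3 on the opposite strand with 0 shared exon bases. At the final harvest the log2 difference was 0.25 for NSUN3 (edgeR adjusted p = 0.0744). The median of 20 tested genes, 10 on each side, was -0.08, with values from -3.36 to 0.59. They span a wide stretch, chr3:81489703-98578231, so the median is not a local one.

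MTHFS (ENSG00000136371.11, chr15:79833585-79897379, minus strand), which returns folinate to the active pool, was measured least precisely, with 39 to 80 counts per library. Its CPM were 1.25, 1.33 and 1.35 in WT and 1.13, 1.45 and 1.86 in KO at the initial harvest, and 1.06, 1.49 and 1.32 in WT and 1.41, 1.25 and 2.01 in KO at the final harvest. The genotypes overlapped at both harvests. The log2 differences were 0.18 (95% interval -0.29 to 0.65) and 0.27 (-0.20 to 0.74), intervals that hold both lower and higher levels in KO. Exon bases shared with genes on the same strand make up 43.4% of MTHFS. ST20-MTHFS, a read-through gene, shares 555 of them and another annotated gene 758, and both were listed at 0 counts in every library.

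**Figure D2:**
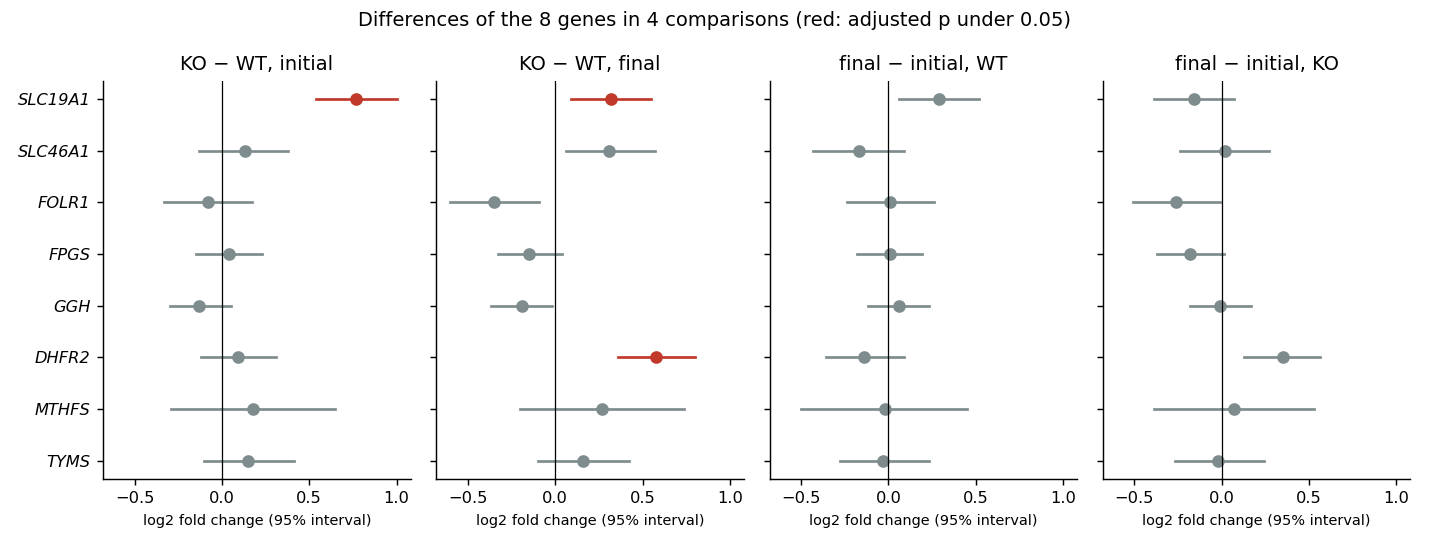
Log2 fold changes (x axes) of the 8 genes (y axes) in 4 comparisons, with 95% intervals from edgeR; red marks an adjusted p under 0.05. SLC19A1 at both harvests (0.77 and 0.32) and DHFR2 at the final harvest (0.58) are marked, no change over time is, and the MTHFS intervals are the widest.

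TYMS (ENSG00000176890.16, chr18:657653-673578, plus strand), the thymidylate-making enzyme and target of fluorouracil, did not pass the test in any comparison. It was at 48.7, 71.8 and 52.4 CPM in WT and 59.1, 68.7 and 64.6 in KO at the initial harvest. After 2 months it was at 53.4, 56.3 and 60.1 in WT and 64.2, 58 and 67.6 in KO. The genotypes overlapped at both harvests, with log2 differences of 0.15 (95% interval -0.10 to 0.41, edgeR adjusted p = 0.415) and 0.16 (-0.10 to 0.42, edgeR adjusted p = 0.415), and the average was 0.16 (-0.02 to 0.34, edgeR adjusted p = 0.184).

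The lack of a TYMS call at the initial harvest and on average depended on WT initial replicate 2, the library with the most TYMS. Without it the initial log2 difference was 0.34 (edgeR adjusted p = 0.0136) and the average 0.25 (edgeR adjusted p = 0.00544). The same library had the highest sum of 17 proliferation transcripts, most of them known to rise around the entry into S phase, 5010 CPM, while the other 11 libraries ran from 4130 to 4830. The part of the cell cycle in the TYMS values was not tested. Of the 17 transcripts none was called at either harvest, where 19.9% and 18.5% of all genes were. There 1 and 2 of them had an unadjusted p under 0.05 and DESeq2 called 0 and 1. On average 1 of the 17, MCM4, a subunit of the replicative helicase, was called higher (log2 0.21, edgeR adjusted p = 0.0249), as were 14% of all genes. That call was lost without WT initial replicate 1 (0.0577) or 3 (0.071), WT final replicate 2 (0.0784) or 3 (0.0568), KO initial replicate 2 (0.0755) or 3 (0.0594), or KO final replicate 1 (0.0708) or 3 (0.0626).

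**Figure D3:**
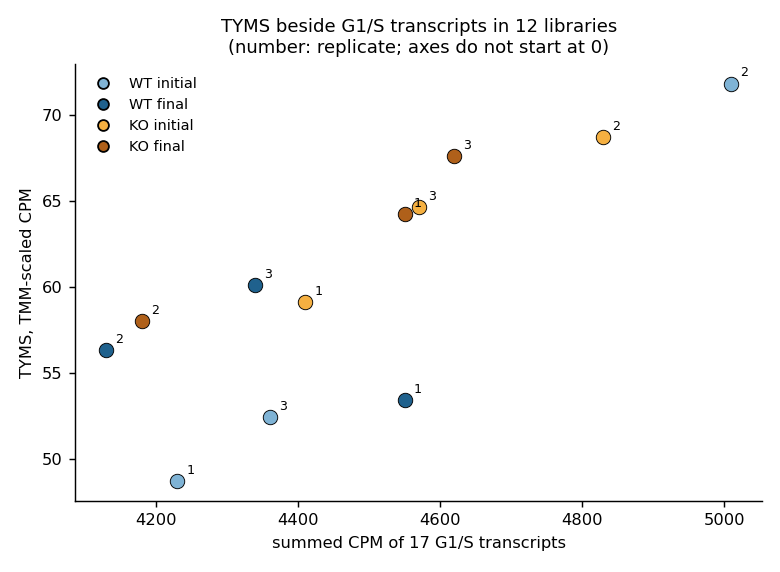
TYMS in TMM-scaled CPM (y axis) against the summed CPM of the 17 transcripts of the G1/S list (x axis) in 12 libraries, with colours for groups and numbers for replicates; neither axis starts at 0. WT initial replicate 2 lies at the upper right, at 71.8 CPM of TYMS and 5010 CPM of the sum.

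At the TYMS locus, ENOSF1 runs on the opposite strand across the end of TYMS, and with TYMSOS at the other end it brings the shared exon bases to 47.5% of TYMS. ENOSF1, a gene of sugar acid breakdown, was at 119 ± 13.1 CPM in WT and 93.9 ± 8.48 in KO at the initial harvest (log2 -0.35, edgeR adjusted p = 0.0566, no overlap, as for 35.5% of all genes) and at 100 ± 13.6 and 100 ± 15.8 at the final harvest. Among 4 tested neighbours at this locus, YES1, a Src-family kinase gene, was called on average (-0.30, edgeR adjusted p = 0.0101), and the other 3 did not pass. Of all genes, 30.1% were called on average and 16.1% were lower. The 18 tested genes around it, up to 10 on each side (chr18:109065-2805017), had median log2 differences of -0.26 and 0.12 at the 2 harvests, opposite in sign. TYMS had 0.15 and 0.16.

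**Figure D4:**
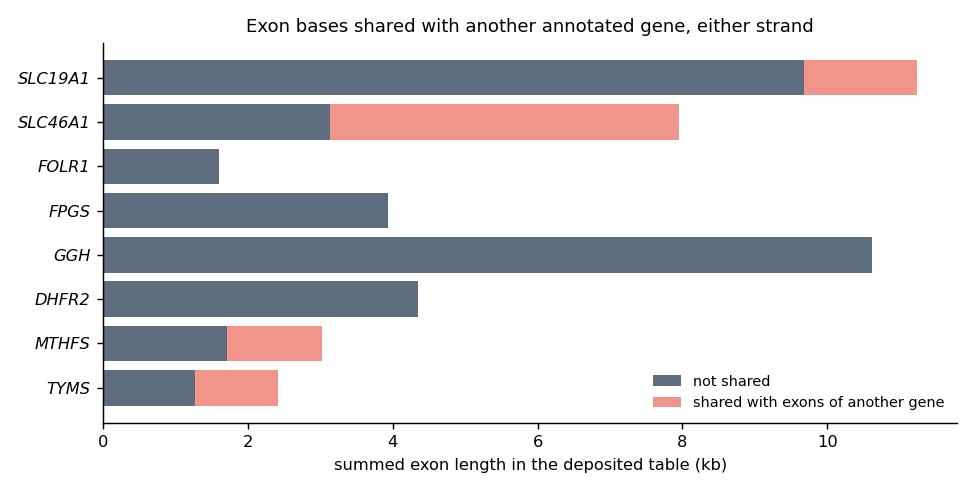
Summed exon length in kb (x axis, from 0) of the 8 genes (y axis), split into bases shared and not shared with an exon of another gene on either strand. SLC46A1 (60.6% shared), TYMS (47.5%) and MTHFS (43.4%) share most, SLC19A1 13.9%, and the other 4 genes 0%.

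Further genes act around dTMP, not all of them in its supply, and are listed here as 11 with TYMS left out. On average over harvests 3 of the 11 were higher in KO and the other 8 did not pass, with a median of 0.06, while 14% of all genes were higher. The initial harvest alone gave 2 higher (8.55% of all genes), TYMP and RRM2B, and the final harvest 0 by edgeR, where 2 had an unadjusted p under 0.05 and DESeq2 called 0. TYMP, the thymidine phosphorylase that breaks thymidine down, was at 28.8 ± 1.73 CPM in WT and 38.5 ± 2.16 in KO at the initial harvest (log2 0.42, edgeR adjusted p = 0.00381) and rose on average by 0.25 (edgeR adjusted p = 0.00694). RRM2B, the p53-induced small subunit of ribonucleotide reductase, rose on average by 0.32 (edgeR adjusted p = 0.00647). Its call at the initial harvest was lost without WT initial replicate 2 (0.114) or 3 (0.0794) or KO initial replicate 1 (0.0527), 2 (0.107) or 3 (0.129). RRM2, the S-phase small subunit, was called at 0.24 on average (edgeR adjusted p = 0.02) but not without WT initial replicate 3 (0.0627), WT final replicate 2 (0.0532), KO initial replicate 2 (0.0583) or 3 (0.0543), or KO final replicate 1 (0.0631). TK1, the thymidine kinase of the salvage route, and DUT, the dUTPase, had average values of 0.17 and -0.00 and did not pass.

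Of 13 genes that pass one-carbon units between folate forms, 4 were lower in KO on average, 1 was higher and 8 did not pass, with a median of -0.03. Over all genes 16.1% were lower and 14% higher on average. At the initial harvest 3 were lower (11.3% of all genes), GART, ALDH1L2 and MTHFD1L, and at the final harvest 3 were lower (10.2%), GART, ALDH1L2 and SHMT2, and 1 was higher (8.38%), MTR. Both GART calls held in every alternative, and the others lost their call without some single libraries. ALDH1L2 lost it at the initial harvest without WT initial replicate 1 (0.0942) or 3 (0.0938) or KO initial replicate 2 (0.0734) or 3 (0.132), and at the final harvest without WT final replicate 1 (0.0793) or KO final replicate 1 (0.0569) or 3 (0.057). MTHFD1L lost it without WT initial replicate 2 (0.0746) or 3 (0.0597) or KO initial replicate 1 (0.144), 2 (0.0546) or 3 (0.0606). SHMT2 at the final harvest was called in only 5 of 18 alternatives: the call was lost without WT initial replicate 3 (0.0611), WT final replicate 1 (0.0774), 2 (0.0992) or 3 (0.124), KO initial replicate 1 (0.0654), 2 (0.0621) or 3 (0.0607), or KO final replicate 1 (0.102) or 2 (0.212). Leaving out an initial library removes none of the libraries compared at the final harvest. GART, which uses formyl-tetrahydrofolate in purine synthesis, fell at both harvests, from 241 ± 16 CPM in WT to 168 ± 6.23 in KO (log2 -0.52, edgeR adjusted p = 0.000273) and from 271 ± 16.3 to 180 ± 11.4 (-0.59, edgeR adjusted p = 7.74e-05). ALDH1L2, the mitochondrial formyl-tetrahydrofolate dehydrogenase, fell on average by 0.57 on the log2 scale (edgeR adjusted p = 0.00144), and MTHFD1L, the mitochondrial formate-making synthetase, fell by 0.26 (edgeR adjusted p = 0.00297). The other 2 calls, named here after their values were seen, were SHMT2, the mitochondrial serine hydroxymethyltransferase (-0.28, edgeR adjusted p = 0.00586), and MTR, the methionine synthase (0.17, edgeR adjusted p = 0.0194). The average MTR call was lost without WT final replicate 2 (0.0579) or KO initial replicate 2 (0.0506), and the MTR call at the final harvest without WT final replicate 2 (0.0567). None of the 52 tested genes of the 5 lists was called by edgeR for a change over time in WT or KO or for the interaction, where 5, 5 and 3 had an unadjusted p under 0.05 and DESeq2 called 1, 1 and 0.

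**Figure D5:**
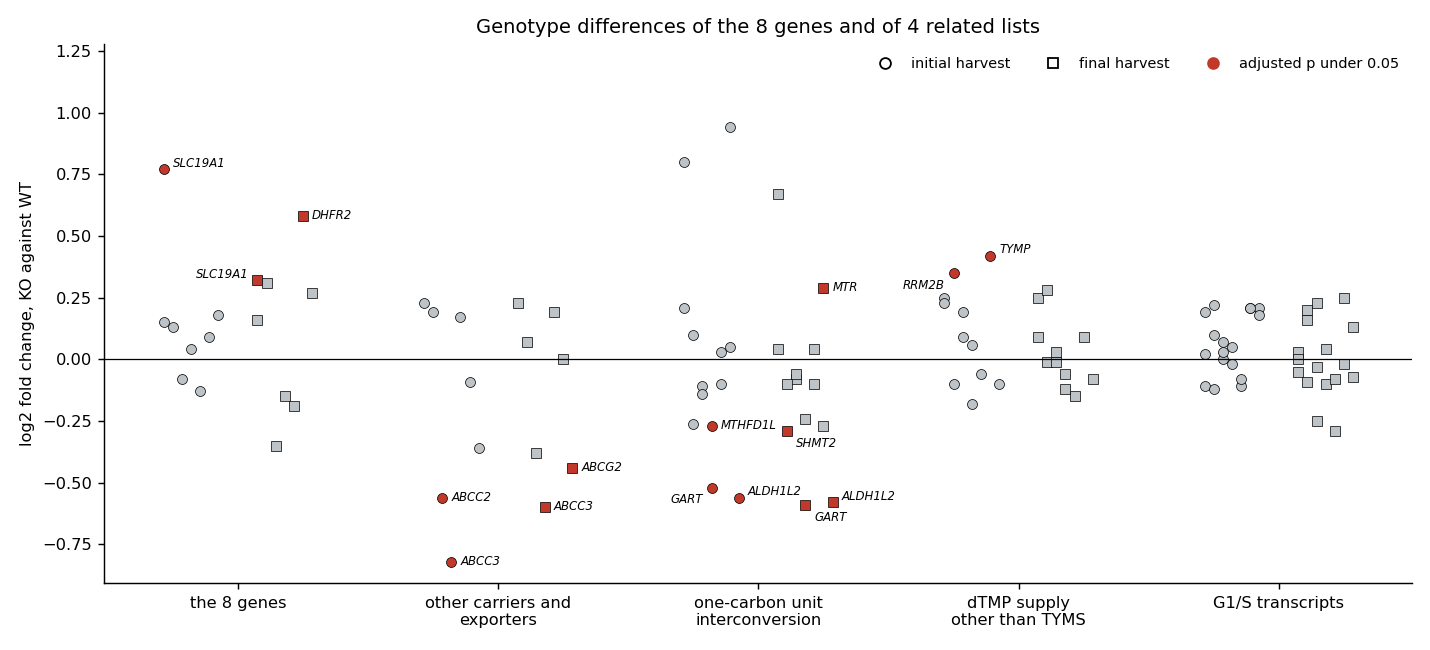
Log2 fold change of KO against WT (y axis) for the 8 genes and the tested genes of 4 related lists (x axis), with circles for the initial and squares for the final harvest; red marks an adjusted p under 0.05, and those genes are named. Called exporters lie below 0 (ABCC3 at -0.82 and -0.60), while SLC19A1 and DHFR2 lie above it.

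Levels can be set beside each other only per length, here as CPM per kb of exon. The length counts all annotated exons (2421 bases for TYMS, 10619 for GGH), not the transcripts expressed, so the order below depends on the annotation. Before division GGH was above TYMS in WT, at 69 against 57.6 CPM at the initial and 71.9 against 56.6 at the final harvest. In KO the 2 were close, at 63.1 against 64.1 and 62.9 against 63.3. In each of the 4 groups TYMS was highest (23.8, 23.4, 26.5 and 26.1 CPM per kb in WT initial, WT final, KO initial and KO final) and FPGS second (17.6, 17.7, 18.1 and 16), and each stood clear of the next gene. In WT, SLC19A1, GGH and FOLR1 came next, at group means of 6.36 to 7.79 CPM per kb. Their libraries overlapped at the initial harvest, while at the final harvest GGH overlapped both others and SLC19A1 (6.9 to 9.08) lay above FOLR1 (5.75 to 6.85). In KO, SLC19A1 stood apart as the third, at 10.9 and 9.76, above GGH at 5.95 and 5.92 and FOLR1 at 6.02 and 5.03. SLC46A1 (2.09 to 2.6), DHFR2 (1.29 to 1.93) and MTHFS (0.425 to 0.514) followed in that order in all 4 groups. Over the bases not shared with another gene, with all counts assigned to them, SLC46A1 would reach 5.31 to 6.6 and TYMS 44.5 to 50.4, so only the place of SLC46A1 depends much on how shared bases are treated.

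The genes whose profiles over the 12 libraries were most like those of the called members were found by the root mean square difference of centred log2(CPM + 0.5) among 12554 genes. For SLC19A1 they were JAG2 (0.057), FDXR (0.067) and PCOLCE2 (0.087), against a median of 0.358 over all genes. For DHFR2 they included KCNJ5-AS1 (0.089) and SLC24A1 (0.096), against 0.265. For GGH they were CNIH4 (0.044), CDS2 (0.05) and GINM1 (0.05), against 0.197, and for TYMS, which was not called, SNRNP25 (0.051), RCC1 (0.055) and MRPS7 (0.056), against 0.227. The profiles share their 12 libraries, and closeness in so few libraries is a description of them.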

How the data were processed

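Poly-A selected RNA from 12 HCT116 libraries was sequenced, per the labels' protocols. The authors deposited 1 table of raw counts per gene and library with each gene's summed exon length, and the submitters' processing notes name STAR, featureCounts, Subread and hg38; versions and strand settings are not given in the sources used here. The table holds 60648 genes, 60506 with a symbol; 5 lines that carry 1 gene broken by a spreadsheet were left out. Its 37318 gene IDs of the same version as in GENCODE 29 all had the same GRCh38 coordinates there.

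Counts were tested with edgeR 4.0.16 in R 4.3.3 (quasi-likelihood test, robust, TMM factors 0.927 to 1.034, genes kept by filterByExpr, 1 mean per group over all 12 libraries), with 6 comparisons, each adjusted by Benjamini-Hochberg over the 18289 genes tested and called at 0.05. The biological coefficient of variation was 9.77%. The test was checked on simulated counts. Groups came from the sample titles and replicates from their numbers, and no 2 libraries agreed within sampling noise. Alternatives were RLE factors, library totals only, no filter, DESeq2 1.42.0, a replicate block, only the groups compared and each library left out.

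The 8 genes, the gene lists and the tests were chosen with earlier results of these data known. Named besides the 8 and MTHFD2 were up to 3 called genes per list, genes overlapping a member, and the 3 closest profiles of TYMS and of each member called on average (pseudocount 0.5 CPM, among genes whose log2 CPM averaged 1 or more). Of the genes this rule gives, 2 are not reported here. C18orf56, an older symbol in the list of TYMS neighbours, was not matched, and CETN1 had 0 counts. Fold changes of other genes named as called were recomputed as alternatives added after the data were seen. Motifs were searched in RefSeq windows of 300 bases, 250 of them before the start.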

Additional observations from a re-analysis of the deposited data

Results flagged for a closer look

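DHFR2 libraries lay on opposite sides of their initial level after 2 months of culture in the 2 genotypes: every WT library was lower at the final than at the initial harvest, and every KO library was higher. WT went from a range of 6.05 to 6.3 CPM to 5.51 to 5.69, and KO from a range of 6 to 7.25 CPM to 8.08 to 8.84. Of all genes tested, 22.2% did not overlap between harvests in WT and 23.2% in KO. The share that moved in opposite directions in this way was not counted. The difference of the 2 changes, final minus initial in KO less that in WT, was 0.48 on the log2 scale. The test of that difference did not pass (edgeR adjusted p = 0.147), nor did either change alone.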

How the results depend on the processing

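The 48 fold changes of the 8 genes (8 genes in 6 comparisons) were recomputed under up to 18 alternatives, 848 values in all. Of these, 769 kept direction and side of the threshold, 24 lost the call, 18 gained one and 37 changed sign. The SLC19A1 difference at the initial harvest (0.69 to 0.84) and the DHFR2 difference at the final harvest (0.53 to 0.64) kept their calls in all 18, and their averages in all 17. The SLC19A1 call at the final harvest was lost in 10 of 18 (adjusted p = 0.00616 to 0.228), and with only the groups compared it was 0.0539. The GGH average was lost in 14 of 17 (adjusted p = 0.0307 to 0.119), among them RLE factors (0.0552), library totals only (0.068) and no filter (0.108). With library totals only, SLC46A1 was called at the final harvest (0.0394) and on average (0.0406), where DESeq2 gave 0.05, and DESeq2 called FOLR1 at the final harvest (0.0401).

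No sign change concerned a called value. With library totals only, the WT changes over time turned to -0.08 for FOLR1, -0.08 for FPGS and -0.03 for GGH, and the GGH interaction to 0.01. With 1 library left out, ranges crossed 0 for FPGS (-0.01 to 0.13) and MTHFS (-0.02 to 0.34) at the initial harvest. They did so over time in WT for FOLR1 (-0.05 to 0.09), FPGS (-0.05 to 0.10), GGH (-0.02 to 0.12), TYMS (-0.13 to 0.16) and MTHFS (-0.13 to 0.09). Over time in KO they did so for MTHFS (-0.17 to 0.26), SLC46A1 (-0.04 to 0.10), GGH (-0.05 to 0.03) and TYMS (-0.08 to 0.03), and in the interaction for GGH (-0.14 to 0.02), TYMS (-0.18 to 0.11) and MTHFS (-0.15 to 0.29). Among 28 results of other genes named as called, 15 kept the call in every alternative and none changed sign; at single harvests SHMT2 lost its final call in 13 of 18, MTHFD1L, RRM2B and COL18A1 their initial and ABCG2 its final call in 6, ALDH1L2 its calls in 5 and 3, and ABCC2, ABCC3 (final) and MTR in 1 each.

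Over all genes, 3635 were called at the initial harvest (2423 to 4615 with 1 library left out), 3391 at the final (2561 to 3895), 1183 over time in WT (627 to 1399; 578 with only those groups), 270 over time in KO (94 to 463; 484 without a filter, 602 with DESeq2, 728 with only those groups), 5499 on average (4657 to 6039) and 235 for the interaction (124 to 444; 423 without a filter, 472 with DESeq2). The cause was not tested, beyond fewer libraries in the fits that leave some out. With library totals only, the share of calls that were higher was 57.5% against 45.2% at the final harvest, 21.5% against 47.2% over time in WT and 78.6% against 63% for the interaction. Libraries with the same replicate number did not clearly pair: the correlations of their deviations ran from -0.59 to 0.534 (median 0.058), and 8 of 18 were over 0.1. For libraries with different numbers they ran from -0.773 to 0.728 (median -0.037), and 13 of 36 were over 0.1. With a replicate block the counts of calls were 3539, 3298, 1123, 246, 5421 and 217 in the order above, SLC46A1 was called at the final harvest (0.0406) and on average (0.0295), and the SLC19A1 final call (0.0612) and the GGH average call (0.0675) were lost. Depth limits MTHFS most, at 39 to 80 counts.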
